A study of Mus musculus with 40 samples.

Results

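K27M-only H3K27me3 regions are stretches of the autosomes that carried an H3K27me3 peak in at least 1 of 5 K27M oligodendrocyte precursor cell (OPC) cultures and overlapped no H3K27me3 peak in any of 5 matched control cultures. They were chosen by that presence and absence, peak by peak, with an overlap of 1 bp enough to remove a K27M peak, and the peaks that were left were merged across the K27M lists. The rule kept 530 of 32469 autosomal K27M peaks (1.63%), which merged into 494 regions of 253 kb of DNA in total. The K27M lists held 11073 merged regions in all, of which 474 (4.28%) lacked a control peak along their whole length. The remaining 20 members lay inside a longer merged K27M region, another part of which did overlap a control peak. In the opposite direction, 71984 of 78802 merged control regions (91.3%) carried no K27M peak. The H3K27me3 peaks of all 10 libraries together merged into 79131 regions.

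The cultures were OPCs from brainstem or dorsal telencephalon (cortex, corpus callosum and hippocampus) of P5-P7 pups from AMGFAP-Cre;K27M litters (hGFAP-Cre and H3-3a-LSL-K27M in the study's methods), taken before differentiation. Tissue was pooled by region and genotype, so a culture stands for several animals, and OPCs were isolated by panning on anti-PDGFRa after depletion of endothelial cells and microglia. In K27M cultures the Cre, active in neural stem and progenitor cells, had switched on an H3.3 K27M allele, and control cultures came from littermates of the same litters. Each genotype had brainstem cultures 59 and 61 and telencephalon cultures 59, 60 and 61, with 1 H3K27me3 and 1 H3K4me3 library per culture. All 8 OPC markers examined, among them Pdgfra, Cspg4, Olig2 and Sox10, had an H3K4me3 peak at the promoter in all 10 H3K4me3 libraries, whereas the microglial markers Cx3cr1, Tmem119, Csf1r and Aif1 had none in any library and P2ry12 had 1 in 8 of them. Of the endothelial markers, Flt1 had an H3K4me3 peak in all 10 libraries and Cldn5 in 2 K27M and 3 control libraries, while Pecam1 and Tek had none. Peaks of the neuronal marker promoters were also present, with H3K4me3 in all 10 libraries at 4 of 5 markers, and of the astrocyte markers at 3 of 6. Of 6 autosomal oligodendrocyte markers 3 (Mbp, Cnp and Myrf) had it in all 10 libraries, while Mog, Mag and Mobp had none. H3K4me3 at these promoters thus does not by itself separate OPCs from oligodendrocytes, astrocytes or neurons.

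H3K27me3 is placed by Polycomb repressive complex 2 (PRC2), typically over CpG-rich promoters of developmental genes that a cell keeps silent. The K27M oncohistone, found in diffuse midline glioma, impairs PRC2 and removes most H3K27me3 across the genome, while strong PRC2 sites retain the mark. H3K4me3 marks promoters that are active or poised, and a promoter that carries both marks is called bivalent. Regions with a called peak in mutant and none in control cultures run against that direction in the peak lists. Each list was called against its own input, with no scaling between libraries. The paper scaled H3K27me3 by a Drosophila spike-in to compare K27M with control. A peak in K27M lists alone is therefore not a measured gain of the mark.

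K27M-only peaks were few in every culture. They numbered 150 in brainstem culture 59, 156 in brainstem culture 61, 34 in telencephalon culture 59, 126 in telencephalon culture 60 and 64 in telencephalon culture 61. As a share of each K27M list these were 2.24%, 2.01%, 0.863%, 1.65% and 0.996%, with the lowest share in telencephalon culture 59, which also had the fewest K27M peaks (3941, against 6427 to 7770 in the others). The control lists, which decide what is removed, were longer and more uneven, with 12526 to 53757 autosomal peaks. Depth is not given in the peak lists and was not used here. The study's reporting summary lists reads per library. Among H3K27me3 libraries they were most in those of telencephalon culture 59, whose lists were the shortest of each genotype. The part of depth in these counts was not tested.

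The peaks were also short and weak. Their median length was 348 to 437 bp in the 5 cultures, against 1254 to 1324 bp for K27M peaks that overlapped a control peak, called shared peaks from here on. An overlap of 1 bp removes a peak, so the rule removes longer peaks more often and length is not independent of it. Strength was not compared at matched length. The fold enrichment over input, which the peak caller gives for a whole peak, had a median of 2.38 to 2.85 in K27M-only peaks and 2.61 to 3.24 in shared peaks. The highest K27M-only value was 5.08, in brainstem culture 61, whereas shared peaks reached 11.7 to 38.7. The median −log10 q was 1.52 to 1.74 in K27M-only peaks and 2.82 to 3.17 in shared peaks. Of the merged regions, 24 (4.86%) were longer than 1000 bp, and the longest covered 6521 bp at Nkx2-2.

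Each library was also set against the 4 control libraries of the other cultures, in the same way for both genotypes. The share of peaks that overlapped none of these was 0.964% to 4.20% in K27M libraries and 4.54% to 37.9% in control libraries, and in each of the 5 cultures it was lower in the K27M library. In telencephalon culture 59 the shares were 0.964% and 4.54%, and in brainstem culture 59 they were 2.81% and 37.9%. This is a description of the lists, with no test.

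**Figure D1:**
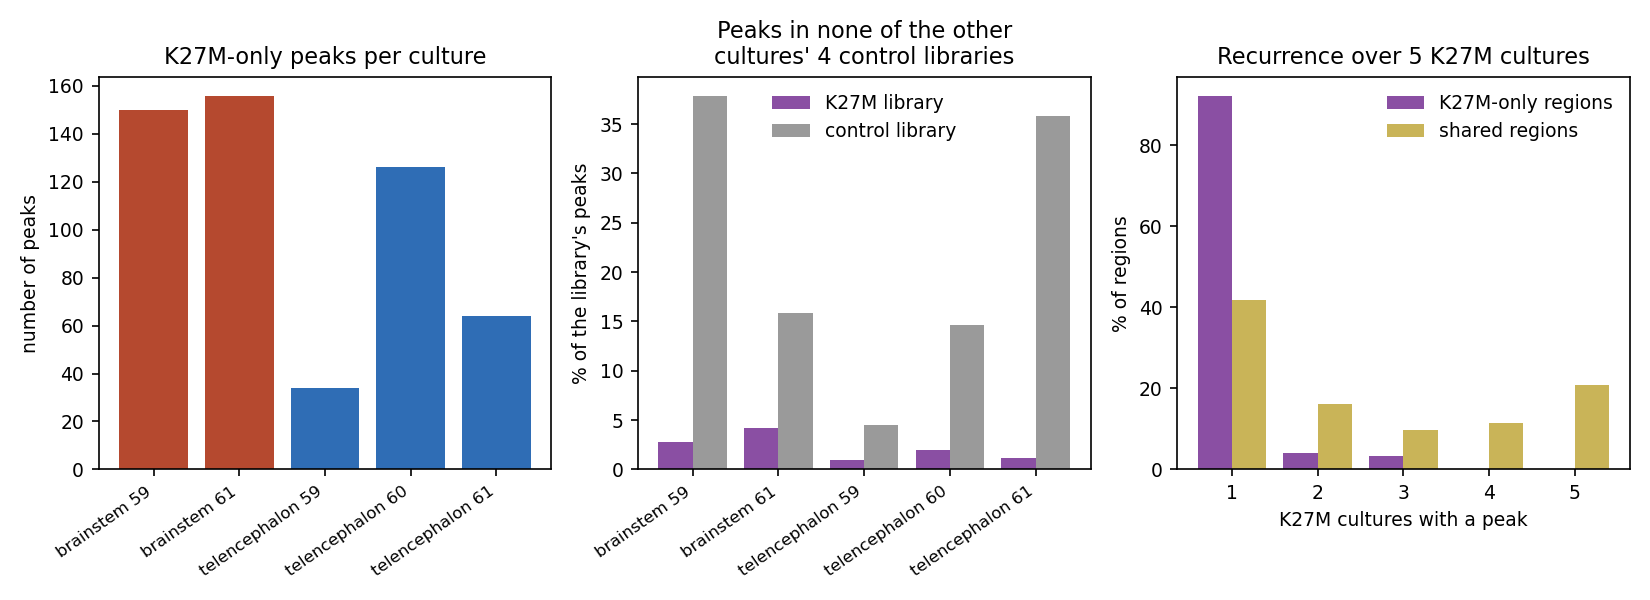
Left, the number of K27M-only H3K27me3 peaks in each K27M culture (brainstem red, telencephalon blue). Middle, the percent of each library's autosomal peaks that overlapped none of the other cultures' 4 control libraries, for K27M (purple) and control (grey). Right, the percent of K27M-only and shared regions with a peak in 1 to 5 K27M cultures. K27M libraries lie at 0.964% to 4.20% in the middle plot and below their control in every culture, and 92.3% of K27M-only regions stand at 1 culture.

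Most members were seen in 1 culture. Counting any H3K27me3 peak of a K27M culture that overlapped the region, 456 of 494 regions (92.3%) had a peak in 1 K27M culture, 20 in 2, 16 in 3, 1 in 4 and 1 in 5. Among 10600 merged shared regions, 4440 (41.9%) had a peak in 1 culture and 2203 (20.8%) in all 5. Counting only peaks that were themselves K27M-only, 473 members stood at 1 culture, 13 at 2, 7 at 3 and 1 at 4, and none reached 5. Peaks were confined to brainstem cultures for 275 members and to telencephalon cultures for 201, whereas 18 had peaks in both regions of origin. The 456 members with a peak in 1 culture fall to 1 region of origin by that alone. The 38 regions with at least 2 cultures were longer than the rest, with a median of 624 bp against 390 bp, and 15 of them had peaks in brainstem cultures alone, 5 in telencephalon cultures alone and 18 in both. Merging several peaks lengthens a region, so length and recurrence are not independent.

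Members often lay beside control peaks. The gap to the nearest control peak had a median of 7320 bp, with quartiles of 1044 and 40839 bp and a range of 0 to 1340815 bp. A control peak lay within 1000 bp of 120 members (24.3%) and within 5000 bp of 223 (45.1%), while 57 (11.5%) were more than 100000 bp from any. The recurrent regions were closer, with a median gap of 1519 bp against 8386 bp for those of 1 culture, and 23 of 38 (60.5%) had a control peak within 5000 bp against 200 of 456 (43.9%). That count of cultures includes K27M peaks that reach a control peak elsewhere, so nearness to a control peak is partly built into it. At the edge of the rule, the member nearest to a control peak, in chr17:74019697-74020078 near Srd5a2, touched it with no base between them. Those at Abcc10, Epop and Osr2 were 1, 22 and 22 bp away, with fold enrichments of 2.42 to 3.03. The K27M peaks just outside it, at or near Cux2, Tle4, Jph1, Dennd2d and Chd9, overlapped a control peak by 1, 2, 12, 16 and 16 bp and had fold enrichments of 2.60 to 3.66, so the values on either side of the rule overlapped.

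**Figure D2:**
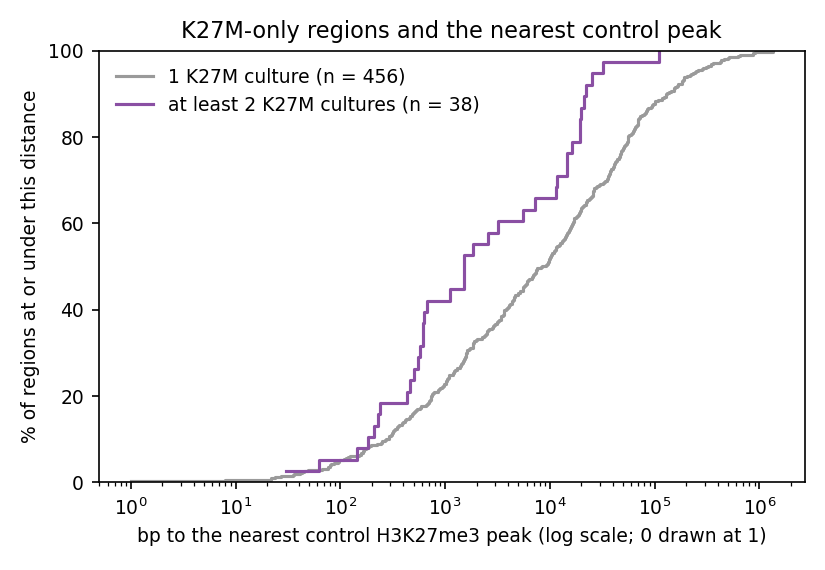
Cumulative percent of K27M-only regions (vertical axis) by the distance in bp to the nearest control H3K27me3 peak (horizontal axis, log scale), for regions with a peak in 1 K27M culture (grey, 456 regions) and in at least 2 (purple, 38 regions). The purple line lies to the left over most of its length, with medians of 1519 and 8386 bp. Cultures are counted by any K27M peak, also one that reaches a control peak elsewhere.

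Whether a culture that was not used to choose the regions showed the same difference was examined by leaving out each matched pair in turn. Regions were chosen from the other 4 pairs by the same rule, and then read in the pair left out. In brainstem culture 59, 35 of 417 regions (8.39%) had a K27M peak and 54 (12.9%) a control peak. In brainstem culture 61, the figures were 123 (20.8%) and 230 (38.9%) of 591 regions. The telencephalon pairs gave 3 and 2 of 463 regions in culture 59 (0.648% and 0.432%), 25 and 50 of 430 in culture 60 (5.81% and 11.6%), and 15 and 70 of 506 in culture 61 (2.96% and 13.8%). Regions chosen as K27M-only thus had a peak in the unused control culture more often than in the unused K27M culture in 4 of 5 pairs. The mean difference, K27M minus control, was -7.83 percentage points (SD 6.97, n = 5 pairs, two-sided exact sign-flip permutation p = 0.12, where 0.062 is the smallest possible), and the 5 values share libraries, so the p is a description. The control lists held more peaks than the K27M lists in every pair.

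The recurrent regions went the other way. Regions with a peak in at least 2 of the other 4 K27M cultures had a K27M peak in the pair left out in 12 of 22 cases (54.5%) and a control peak in 0 of 22 for brainstem culture 59. The counts were 34 and 36 of 59 for brainstem culture 61, 3 and 1 of 36 for telencephalon culture 59, 20 and 15 of 48 for culture 60, and 13 and 7 of 39 for culture 61. The K27M share was the higher in 4 of 5 pairs, and the mean difference was 16.5 percentage points (SD 22.4, n = 5 pairs, exact sign-flip permutation p = 0.12). Brainstem culture 59 contributed most to it, and without that pair the mean was 6.99 points. With 5 pairs this test cannot go below 0.062, so neither mean could pass a threshold of 0.05. Recurrence was asked of K27M cultures alone, which by itself favours a higher K27M share. The count took any K27M peak, also one that reaches a control peak elsewhere. The 16.5 points are thus a description, and no conclusion is drawn from them.

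**Figure D3:**
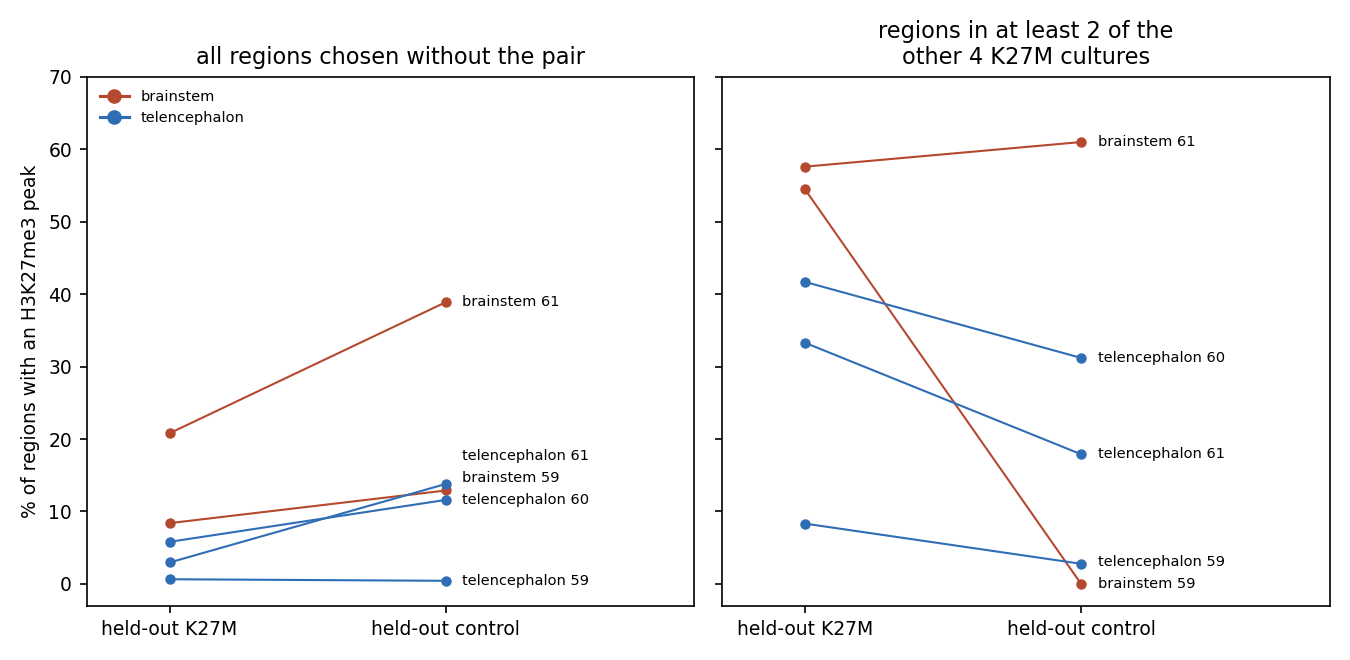
Percent of regions with an H3K27me3 peak in the K27M and in the control culture of the pair that was not used to choose them, with a line for each of the 5 pairs (brainstem red, telencephalon blue). Left, all regions chosen without the pair, where 4 lines rise toward the control culture. Right, regions with a peak in at least 2 of the other 4 K27M cultures, where 4 lines fall toward the control culture.

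K27M-only peaks were compared with shared peaks of the same culture in features that the rule did not read directly. Shared peaks are by the rule sites of control H3K27me3, a mark typically over CpG-rich promoters. Promoter overlap, CpG density and H3K4me3 are therefore not independent of the rule. They lay less often at promoters, defined as 2000 bp upstream to 1000 bp downstream of a transcript start. In brainstem cultures 59 and 61 the share at a promoter was 10.0% and 14.1%. It was 2.94% in telencephalon culture 59, 12.7% in culture 60 and 14.1% in culture 61, while shared peaks stood at 38.4% to 41.7%. The mean difference was -29.6 percentage points (SD 5.48, n = 5 cultures, exact sign-flip permutation p = 0.062, the smallest that 5 cultures allow), with no overlap between the classes. The share overlapping a gene body was also lower in each culture, at 46.8% to 54.8% against 61.7% to 66.1%, with a mean difference of -13.5 points (SD 3.41, exact permutation p = 0.062). CpG density, the median number of CpG dinucleotides per 100 bp, was 0.638 to 1.01 in K27M-only peaks and 1.26 to 1.39 in shared peaks, and differed by -0.509 on average (SD 0.148, n = 5, exact permutation p = 0.062). Longer peaks reach more features by their length alone, and among peaks of at most 1000 bp in both classes the differences were -15.7 points for promoters, -4.56 points for gene bodies and -0.268 CpG per 100 bp, each smaller than over all peaks but in the same direction. The exact permutation p for gene bodies was then 0.12.

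By place, 52 of 494 members (10.5%) overlapped a promoter, 29 (5.87%) an exon outside promoters, 168 (34.0%) an intron and 245 (49.6%) no gene. Of the promoters, 34 belonged to protein-coding genes, and 48 members overlapped an exon of a protein-coding gene. The merged shared regions were at a promoter in 34.9% and outside genes in 35.7%. The median distance from a member to the nearest protein-coding transcript start was 24844 bp. Of the 426 protein-coding genes nearest to a member, each counted 1 time, 135 (31.7%) carried a shared H3K27me3 region at the promoter or gene body. Among all protein-coding genes 16.3% had such a shared region. A shared K27M peak lay within 5000 bp of 120 members (24.3%), and gene length was not matched, so these shares do not compare like with like. Recurrent members were at a promoter in 8 of 38 cases (21.1%), against 44 of 456 (9.65%) for those of 1 culture.

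Few members carried H3K4me3. An H3K4me3 peak of any of the 10 libraries overlapped 31 members (6.28%), whereas it did so for 29.2% of all merged K27M regions, and 463 members had none. Within the same K27M culture the share of K27M-only peaks with H3K4me3 was 3.33%, 8.33%, 8.82%, 4.76% and 9.38% in the order of cultures above, against 21.1% to 32.1% of shared peaks. The mean difference was -20.1 percentage points (SD 6.32, n = 5, exact sign-flip permutation p = 0.062) and -8.04 points among peaks of at most 1000 bp. Where H3K4me3 was present it was mostly present everywhere, with 22 of the 31 members marked in all 10 libraries. These included 17 of the 52 promoter members.

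H3K4me3 at the members was nearly the same in both genotypes. In brainstem cultures 59 and 61 the H3K4me3 peaks overlapped 4.86% of members in K27M and 4.66% in control. In telencephalon cultures 59, 60 and 61 the shares of the 2 genotypes were equal, at 4.45%, 4.86% and 4.86%. The mean difference was 0.081 percentage points (SD 0.111, n = 5 pairs, exact sign-flip permutation p = 0.50), less than the spread between pairs, and it was -0.0846 points without brainstem culture 61. At merged shared regions H3K4me3 covered 22.2% ± 3.08 (SD, n = 5) in K27M and 22.8% ± 4.69 in control. H3K4me3 was found in more K27M than control cultures at 5 members and in fewer at 4, and at no member did the number of cultures differ by 3 or more.

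**Figure D4:**
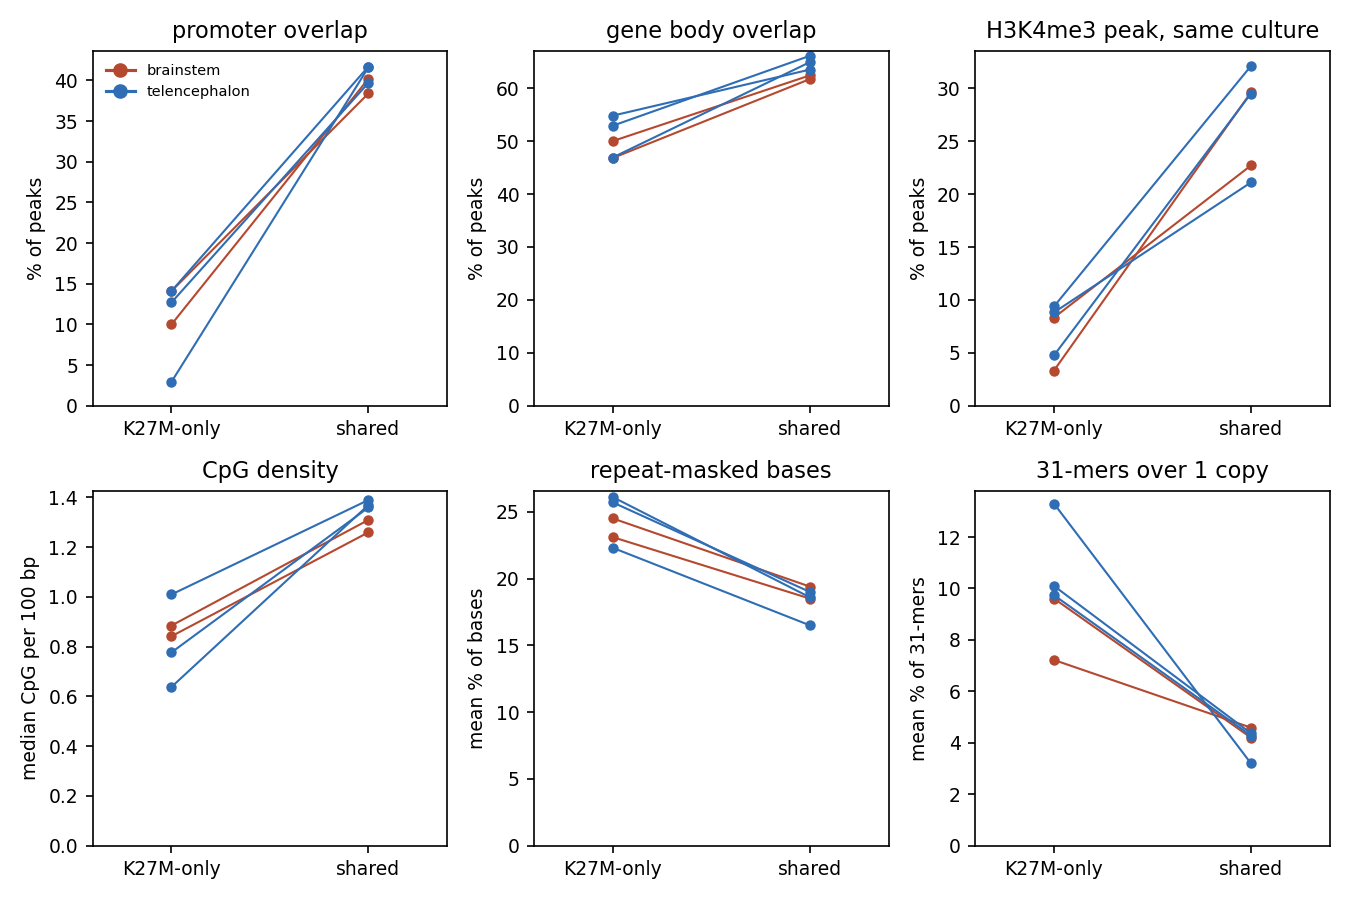
Values of K27M-only and shared peaks in each K27M culture, joined by a line (brainstem red, telencephalon blue). The upper plots give the percent of peaks that overlap a promoter, a gene body and an H3K4me3 peak of the same culture. The lower plots give median CpG per 100 bp, the mean percent of bases that the reference marks as repeats, and the mean percent of 31-mers that occur more than once in the genome. K27M-only peaks are lower in the first 4 and higher in the last 2 in all 5 cultures.

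Sequence that occurs in several places was more common in K27M-only peaks, in a pair of measures that were added after the data were seen. Repeat-masked bases made up 22.3% to 26.1% of K27M-only peaks and 16.5% to 19.4% of shared peaks, a mean difference of 5.93 percentage points (SD 1.18, n = 5, exact permutation p = 0.062). Of the 31-mers in the central 300 bp, 7.22% to 13.3% occurred more than once in the genome in K27M-only peaks and at most 4.59% in shared peaks, a mean difference of 5.87 points (SD 2.70, exact permutation p = 0.062). The difference was larger among the stronger peaks. Of 47 K27M-only peaks with a −log10 q of at least 3, 16 (34.0%) had at least 50% of their 31-mers in more than 1 copy, against 43 of 530 (8.11%) of all K27M-only peaks. In shared peaks the shares were 2.30% and 2.44%. The part of repeated sequence in these peaks was not tested.

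The most recurrent regions are described in 3 kinds, and sequences of examples from mm10 (RefSeq GRCm38.p6) show how these differ. Each line gives the central 150 bp on the plus strand, in lower case, with CpG dinucleotides in capitals. The first 3 are regions of repeated sequence, the next 3 are at CpG-rich promoters with H3K4me3, and the last lies at a homeobox locus without H3K4me3.
Near Slc10a2, chr8:5220205-5220354: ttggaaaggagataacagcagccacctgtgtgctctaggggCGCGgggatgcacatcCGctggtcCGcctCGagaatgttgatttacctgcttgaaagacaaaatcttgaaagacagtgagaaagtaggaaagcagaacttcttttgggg
Nt5dc1 intron, chr10:34289167-34289316: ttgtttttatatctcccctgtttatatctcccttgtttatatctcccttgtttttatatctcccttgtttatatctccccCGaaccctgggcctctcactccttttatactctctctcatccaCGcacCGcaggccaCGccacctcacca
Pcgf3, chr5:108478501-108478650: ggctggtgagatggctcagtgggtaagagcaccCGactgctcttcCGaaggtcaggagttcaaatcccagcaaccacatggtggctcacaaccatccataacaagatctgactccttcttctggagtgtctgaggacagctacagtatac
Pde4a promoter, chr9:21165207-21165356: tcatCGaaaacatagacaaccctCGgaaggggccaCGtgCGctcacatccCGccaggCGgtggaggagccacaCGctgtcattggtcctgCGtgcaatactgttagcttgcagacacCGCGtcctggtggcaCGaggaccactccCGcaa
Mir124a-1 promoter, chr14:64588874-64589023: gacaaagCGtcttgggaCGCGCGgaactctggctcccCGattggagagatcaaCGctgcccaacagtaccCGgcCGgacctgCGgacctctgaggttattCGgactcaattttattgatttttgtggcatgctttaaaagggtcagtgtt
Nkx2-2 promoter, chr2:147194536-147194685: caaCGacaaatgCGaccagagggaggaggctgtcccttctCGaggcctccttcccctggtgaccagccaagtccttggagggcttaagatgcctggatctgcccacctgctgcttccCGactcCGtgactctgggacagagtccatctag
Cnpy1 intron, chr5:28212876-28213025: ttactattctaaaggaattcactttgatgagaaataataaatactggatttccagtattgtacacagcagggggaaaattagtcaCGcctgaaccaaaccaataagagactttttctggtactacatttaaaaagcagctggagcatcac
The window near Slc10a2 holds 5 CpG and is repeat-masked in all 150 bases, whereas the Pde4a window holds 12 CpG and no masked base.

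The 25 regions named by rank (number of K27M cultures, then median fold enrichment) are described by these kinds. Fold enrichments are those of the whole K27M peak that overlaps a region, and such a peak can be far longer than the region. In 10 of the 25, the peak was K27M-only in every culture that had it. In the others, at least 1 culture had a longer peak that reached a control peak elsewhere. Only 5 of the 25 had a peak in telencephalon culture 59, 9 had H3K4me3 in all 10 libraries and 16 had it in none. A control peak lay within 1000 bp of 8 and within 5000 bp of 12.

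The region with peaks in most cultures by the K27M-only count was chr8:5220034-5220525, an intergenic stretch 114683 bp from the start of Slc10a2, the ileal bile acid transporter. It had K27M-only peaks of 297 to 492 bp in 4 of 5 K27M cultures, with a fold enrichment of 3.42 in brainstem culture 59, 5.08 in brainstem culture 61, 3.64 in telencephalon culture 60 and 3.90 in telencephalon culture 61. It was repeat-masked along its whole length, 93.3% of its 31-mers occurred more than once, with a median of 80.6 copies, and control cultures brainstem 59 and telencephalon 61 had a peak within 5000 bp. Regions of the same kind stood in 3 cultures each. That in chr7:77421215-77421728, 771015 bp from the start of Ntrk3, which encodes a neurotrophin receptor, had fold enrichments of 3.33, 2.68 and 3.23 in brainstem culture 59 and telencephalon cultures 60 and 61. An intronic region of Nt5dc1 (chr10:34288993-34289490) had 2.98, 2.71 and 4.43 in the same cultures, with 98.1% of 31-mers repeated at a median of 386 copies. An exonic region of Pcgf3 (chr5:108478332-108478820), which encodes a Polycomb RING finger protein of PRC1, had 3.35 in brainstem culture 61 and 2.94 and 2.88 in telencephalon cultures 59 and 60, with 60.0% of 31-mers repeated. None of these 4 regions had an H3K4me3 peak in any library. Among the 8 regions with a K27M-only peak in at least 3 cultures, 4 (50.0%) had at least 50% of their 31-mers in more than 1 copy. An exonic region of the ubiquitin-conjugating enzyme gene Ube2q2 (chr9:55168009-55168507) had 22.2% repeated 31-mers and fold enrichments of 2.81, 3.57 and 2.61 in brainstem cultures 59 and 61 and telencephalon culture 60, without H3K4me3. A further region of repeated sequence, 717478 bp from Stpg2, was found in 2 cultures.

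The remaining 3 of these 8 regions were at CpG-rich promoters with H3K4me3 in all 10 libraries, and no control peak lay within 5000 bp of them. At Pde4a, a cAMP phosphodiesterase gene, the region chr9:21163840-21166724 covered the promoter and first bases of the gene (plus strand, from 21165714). It had K27M-only peaks of 2653 to 2807 bp with fold enrichments of 3.21 and 3.35 in brainstem cultures 59 and 61 and 3.15 in telencephalon culture 60. Telencephalon cultures 59 and 61 had none. The CpG density was 6.59 per 100 bp and the nearest control peak was 14609 bp away. At Mir124a-1hg, the host gene of the neuronal microRNA miR-124 (chr14, plus strand, from 64587331), 2 regions lay side by side. The first, chr14:64585311-64588185, had fold enrichments of 2.55 and 3.11 in brainstem cultures 59 and 61 and 2.75 in telencephalon culture 61. The second, chr14:64588589-64589308, lies upstream of Mir124a-1 itself and had 2.52, 3.05 and 2.87 in the same cultures. The nearest control peaks were 16383 and 19661 bp away.

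Nkx2-2, a homeobox factor of the oligodendrocyte lineage, had 3 members over its body and promoter (minus strand, chr2:147177546-147194243) with H3K4me3 in all 10 libraries. In chr2:147185509-147192029, the longest member, fold enrichment was 2.67 in brainstem culture 61, 2.81 in telencephalon culture 60 and 6.77 in telencephalon culture 61. The last value belongs to a peak of 11825 bp that also spans the other Nkx2-2 members. In chr2:147194239-147194983 the values were 2.83, 2.56 and 6.77 in the same cultures, and in chr2:147192488-147193705 they were 2.76 in brainstem culture 61 and 6.77 in telencephalon culture 61. No control peak covered any base between the first and the last of these members, but controls of telencephalon cultures 60 and 61 had a peak 227 bp beyond the promoter member or farther. Over the whole promoter windows of Nkx2-2, 3 K27M and 2 control cultures had an H3K27me3 peak. It was the 1 OPC marker of 8 with H3K27me3 at its promoter.

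The third kind lay at developmental loci with a control H3K27me3 peak 438 to 7225 bp from the member. At Cnpy1, which encodes a regulator of FGF signalling beside the homeobox gene En2, chr5:28212712-28213189 was the only member with a peak in all 5 K27M cultures. Brainstem cultures 59 and 61 had fold enrichments of 10.2 and 11.1. Telencephalon cultures 59, 60 and 61 had 3.33, 2.56 and 8.16. Only in telencephalon culture 60 was the peak, of 478 bp, K27M-only. In the others it was part of a peak of 12854 to 29135 bp that met control peaks elsewhere, and the nearest control peak was 1839 bp from the member. Along the same locus, chr5:28131796-28132200 had 20.1, 14.6 and 3.11 in brainstem culture 59 and telencephalon cultures 60 and 61, and chr5:28188890-28189485 had 10.2 and 2.64 in brainstem cultures 59 and 61. At the LIM homeobox gene Lhx4, chr1:155726725-155727035 had 20.0 and 23.6 in brainstem cultures 59 and 61 and 3.18 in telencephalon culture 61, and chr1:155724940-155726055 had 20.0, 2.88 and 2.28 in brainstem cultures 59 and 61 and telencephalon culture 60. The control peaks nearest to them were 438 and 504 bp away, and all 5 control cultures had a peak within 5000 bp of either. At the LIM homeobox gene Lhx2, chr2:38366013-38370813 was K27M-only in brainstem cultures 59 and 61 (2.94 and 4.76), had no peak in telencephalon cultures and lay 7225 bp from a control peak.

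At Nr2f1, the nuclear receptor COUP-TFI that patterns the cortex, 3 members with H3K4me3 in all 10 libraries were found in telencephalon cultures alone. Telencephalon culture 59 had short K27M-only peaks of 358, 689 and 2987 bp with fold enrichments of 2.09, 2.23 and 2.50. In telencephalon cultures 60 and 61 they lay inside peaks of 43907 and 44377 bp with fold enrichments of 7.51 and 7.82. Brainstem K27M cultures had no peak there, and the nearest control peak was 14654 bp or farther from the members. The region chr13:78197286-78197643 is in the promoter of Nr2f1, and the others are in an intron of the antisense gene A830082K12Rik. The rest of the 25 were an intronic region of the chromatin remodeller gene Chd9 (2.84, 3.14 and 3.02 in 3 cultures, with control peaks 466 bp away) and intergenic regions near Syt13, Gm11627 and Rragc in 2 cultures each, at 144, 636 and 242 bp from a control peak.

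**Figure D5:**
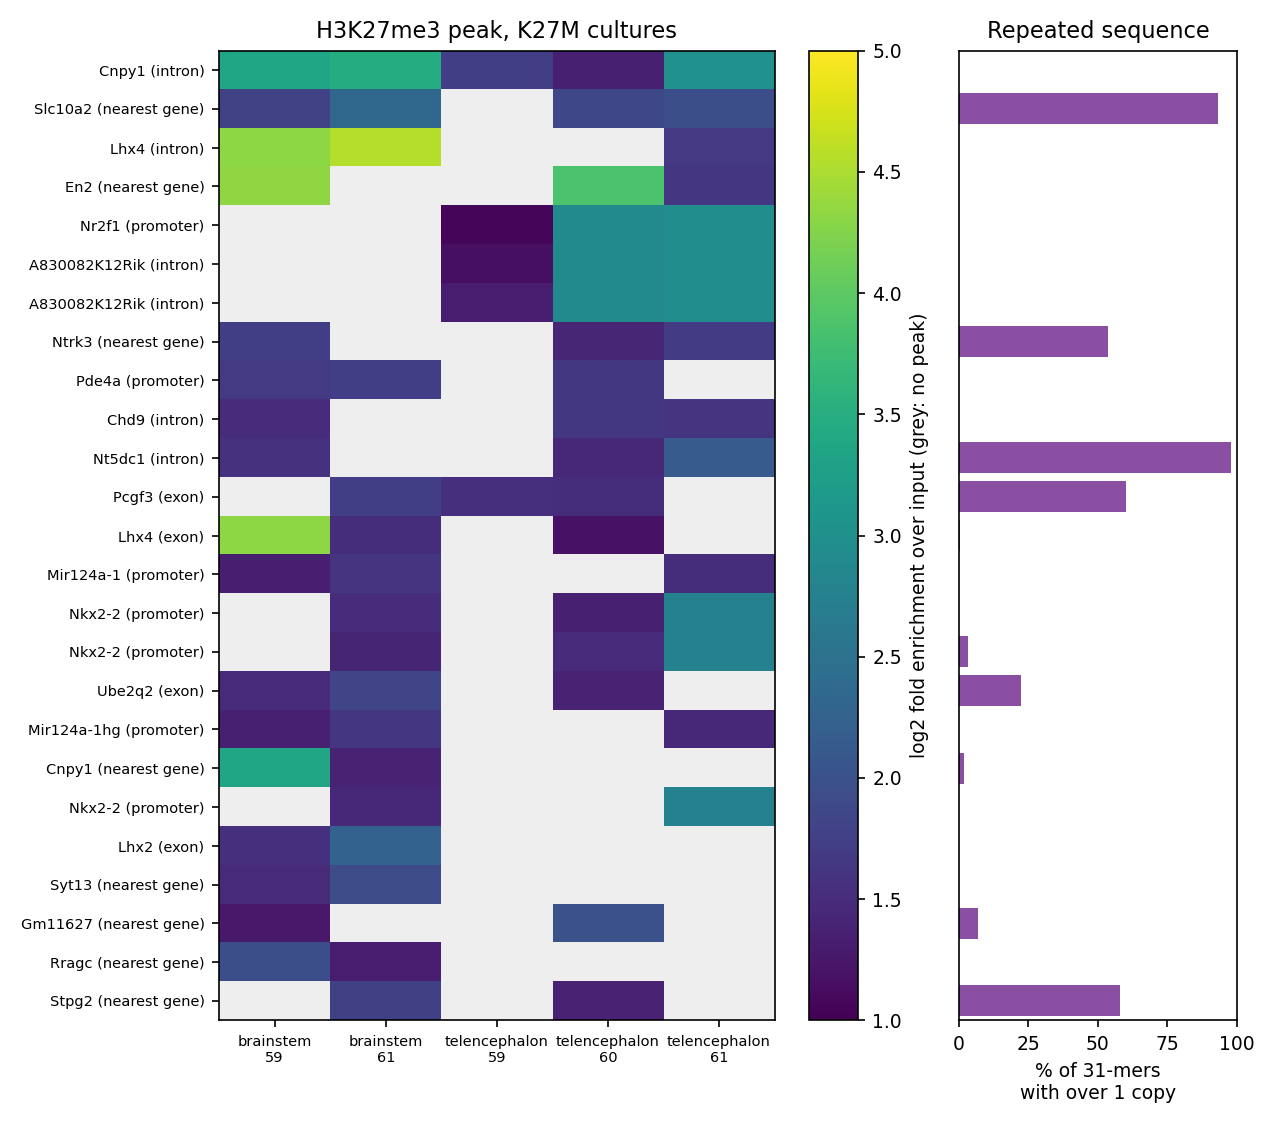
Left, log2 fold enrichment over input of the H3K27me3 peak that overlaps each of the 25 named regions (rows, labelled by gene) in the 5 K27M cultures (columns), with grey where a culture had no peak. Right, the percent of 31-mers in the region's centre that occur more than once in the genome. Fold enrichments over 10 stand at Cnpy1, Lhx4 and En2, most cells of telencephalon culture 59 are grey, and 5 regions exceed 50% of repeated 31-mers.

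Some loci held several members. Chaining members within 20000 bp gave 445 loci, of which 14 held at least 3 members (49 in all). The loci with most members had 5, at Meis2 (chr2:116060672-116068790) and near Cited4 (chr4:120656230-120673609). At Meis2, a TALE homeobox gene, all 5 were of brainstem culture 61 alone. No control peak covered any base of that span. A further 3 were at Meis1 (chr11:19012926-19017996), of telencephalon culture 61 alone, and 3 near the cortical T-box gene Tbr1 (chr2:61823758-61827210), of brainstem culture 59 alone. Taken as whole loci, those near Cited4, Ostm1, Ltbp1, Syt13 and Mtpn had K27M peaks in both brainstem cultures and in no telencephalon culture. So did the span chr5:28182593-28189485 at Cnpy1 and En2. The En2 span beside it (chr5:28131796-28151721) had peaks in both brainstem cultures and in telencephalon cultures 60 and 61. Single members of the brainstem loci did not always have a peak in both brainstem cultures. At Ltbp1 each member had a peak in 1 culture, and near Syt13 the K27M-only peaks were of brainstem culture 59 alone. The span at Pbx3, another TALE homeobox gene, had members of telencephalon cultures 60 and 61. The 22 members with H3K4me3 in all 10 libraries lay at few loci. Besides Nkx2-2, Nr2f1, Mir124a-1hg and Pde4a they were at or near Meis1, Meis2, Ltbp1, Afap1l2, Pou3f1, Rimklb and Gm11627. At these last 7 loci, the members with H3K4me3 were found in 1 culture each, with fold enrichments of 2.45 to 3.29, and these genes were named after their values were seen.

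By gene, 192 of 20780 autosomal protein-coding genes (0.924%) had a member at the promoter or in the gene body, and 3381 (16.3%) had a shared region. Of 115 homeobox genes listed, 5 (4.35%) had a member, namely Lhx2, Lhx4, Lmx1b, Nkx2-2 and Pax6, while 114 had a shared region. That list does not hold, among others, Meis1, Meis2 and Dmbx1, which had a member at the promoter, or Pbx3, Onecut2 and Pou3f1, which had one in the gene body. Of 66 other developmental transcription factors listed 0 had a member and 61 a shared region, and that list does not hold Nr2f1, Nr4a3 and Foxp2, which each had a member. Among 55 genes of the Hedgehog, Wnt, BMP and FGF pathways Bmp6 had a member, and among 22 genes of the oligodendrocyte lineage Nkx2-2 and Lhfpl3 did. A member lay in Slc17a6 among 13 neuronal genes, in Sema6a among 45 axon guidance genes, in Kcnh1 and Kcnh7 among 38 potassium channels, in Grm8 among 29 glutamate and GABA receptors, in Usp29 among 45 imprinted genes, and in Pcgf3 among 27 PRC2 and PRC1 subunits. Of 1127 olfactory receptors 2 (Olfr1350 and Olfr6) had a member, and of 385 Zfp genes 2 (Zfp37 and Zfp541). None of the 7 cyclin-dependent kinase inhibitors, 10 astrocyte genes, 11 microglial and endothelial genes, 326 vomeronasal receptors, 51 clustered protocadherins, 110 keratin genes or 67 histone cluster genes had a member. Lists of long genes offer more sequence for a region to fall in, and no list was tested against another.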

How the data were processed

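Peak lists of 20 ChIP-seq libraries were used, 10 of H3K27me3 and 10 of H3K4me3, from 5 matched pairs of control and K27M OPC cultures. Inputs were not analysed here. To make the lists, the authors mapped reads on mm10 (BWA 0.7.17-r1188), left out blacklisted regions, and ran MACS2 2.2.7.1 on each library with the matching input as background, in broad mode for H3K27me3, without pooling. Columns of the deposited lists hold a fold enrichment (a ratio to input), a −log10 p-value, a −log10 q-value and a score, the last of which was not read here. Reads per region and library depth are not in these lists, and H3K27me3 under the peak threshold was not measured.

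Groups came from the sample labels. K27M peaks of chromosomes 1 to 19 that overlapped a control peak by 1 bp or more were removed and the rest merged. Promoters (2000 bp upstream to 1000 bp downstream), gene bodies and exons came from GENCODE M21, and sequence from GRCm38.p6, the assembly of mm10. Repeat-masked bases are those in lower case in that sequence. The members and gene lists were chosen with earlier results of these data known. Regions were named by the number of K27M cultures with a peak, then by the median of their fold enrichments, up to 25, along with up to 3 recurrent promoter regions per gene list (which added no further gene) and 5 peaks on each side of the rule, of which 1 is not reported here. Genes were assigned by promoter, then gene body, then nearest protein-coding start.

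The 5 pairs or cultures were tested by exact, two-sided permutation of the signs of their differences (32 arrangements, smallest p 0.062), in Python 3.11.15 with numpy 2.4.6, tested on simulated data. The pairs are control and K27M cultures of the same number, made from the same litters and assayed together. Deviations of H3K4me3 presence from the group means correlated at 0.063 in the brainstem pairs and 0.311 to 0.608 in the telencephalon pairs. The p-values rest on cultures, each pooled from several animals. Brainstem and telencephalon cultures of the same number may share litters, and the test treats the 5 as independent. Alternatives covered peak strength, distance to control peaks, merging, peak length, promoter size, each pair left out, and no pairing.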

Additional observations from a re-analysis of the deposited data

Results flagged for a closer look

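Outside the autosomes, which the comparisons do not use, 226 K27M-only regions lay on the X chromosome, a signal absent from the control lists by the rule itself. They came from 232 peaks, of which 212 (91.4%) were of telencephalon culture 60, 14 of brainstem culture 61, 3 each of brainstem culture 59 and telencephalon culture 61, and 0 of telencephalon culture 59. X-chromosome H3K27me3 peaks numbered 798 to 8114 in the K27M libraries, highest in telencephalon culture 60, and 148 to 16040 in the control libraries. The sexes of the pooled pups were not used here, and the part of sex in these counts was not tested. None of the 8 sets of differences over 5 cultures, nor the percent of peaks that were K27M-only, held a culture that stood apart from the rest by Dixon's criterion.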

How the results depend on the processing

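The number of K27M-only regions depended on how strong a peak had to be. It was 36 with a −log10 q of at least 3, 76 with a fold enrichment of at least 3, 273 when a control peak within 5000 bp also removed a peak, 38 with peaks in at least 2 K27M cultures and, added after seeing the data, 21 with K27M-only peaks in at least 2. It was 377 when a control peak within 1000 bp removed a peak, 622 when control peaks had to cover 50% of it, 721 over all chromosomes, and 417 to 591 with a pair left out.

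Promoter, CpG, gene body and H3K4me3 overlap differences between K27M-only and shared peaks, and both repeat measures, kept their direction in every alternative run, but not their size. With a fold enrichment of at least 3 the gene body difference was -33.3 points, the promoter difference -40.0, the repeat-masked share 16.8 and the repeated 31-mers 18.5, and the CpG difference of -0.462 had an exact permutation p of 0.50. With a −log10 q of at least 3 the promoter difference was -47.7 and the repeat measures were 23.1 and 30.0. With peaks of at most 1000 bp the promoter, CpG, H3K4me3 and gene body differences were -15.7, -0.268, -8.04 and -4.56, and a mean in place of the median gave a CpG difference of -0.900. With a pair left out they ranged from -32.4 to -26.9 points (promoter), -0.538 to -0.454 CpG per 100 bp, -22.1 to -18.9 points (H3K4me3) and -15.3 to -11.8 points (gene body). Without the pairing of classes by culture (no replicate block), the same values of -29.6, -0.509, -20.1, -13.5, 5.93 and 5.87 had an exact permutation p of 0.0079 each, since that test has more arrangements. Without repeated peaks, an alternative added after seeing the data, 460 regions remained and the promoter difference was -29.3 points.

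The H3K4me3 difference between K27M and control at the regions turned negative with a −log10 q of at least 3 (-1.11 points), with control peaks within 1000 bp (-0.0531) or 5000 bp (-0.0733) removing a peak, and with 50% cover required (-0.193). It was 0 with a fold enrichment of at least 3 and when each pair was read only at the regions of its own K27M culture, and 1.05 points for regions with at least 2 K27M cultures (exact permutation p = 0.50). With a pair left out it ranged from -0.0846 to 0.120, and without pairing of cultures (no replicate block) it was 0.081 with an exact permutation p of 0.60. The cause was not tested. In the pairs not used to choose the regions, the difference of -7.83 points became 16.5 for regions with at least 2 of the other cultures (14.2 without repeated peaks). That choice asks for more K27M cultures and nothing further of controls. The difference was -2.92 with a fold enrichment of at least 3 and -9.84 to -5.26 with a pair left out. Over all regions it had an exact permutation p of 0.23 without pairing. Sparse lists limit what could be seen in telencephalon culture 59.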
